A study of Penicillium oxalicum with 6 samples.

Results

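A set of 88 gene IDs of Penicillium oxalicum, all numbered between POX09343 and POX09834, was expressed in a Ku70 strain and at least 2 times as abundant in a strain without the gene POX09752. The series holds 9834 IDs, and the range POX09343 to POX09834, the highest-numbered 5% of them, holds 492. The 9 IDs from POX09748 to POX09756, POX09752 and its neighbours in number, were left out. Of the remaining 483 IDs, 325 had a mean of at least 1 FPKM (fragments per length of gene and number of mapped fragments) over the 3 Ku70 libraries. The 88 rising IDs were chosen by FPKM, as those whose mean over the 3 MuPOX09752 libraries was at least 2 times the Ku70 mean, and the other 237 expressed IDs, called non-rising here, were set beside them. Another 144 IDs had a Ku70 mean under 1 FPKM and were at least 2 times higher in MuPOX09752, and 14 had a Ku70 mean under 1 FPKM and were not. Because the strain difference chose the 88 IDs, their ratios are given as a description, with no test.

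Both groups were mycelium grown for 24 h at 28 °C in liquid medium with 2% Avicel, a microcrystalline cellulose, and sequenced as 3 libraries each. For all 6 libraries, 6 days on plates, 1 g of hyphae, 100 mL of medium and shaking at 180 rpm are also recorded. The first group was MuPOX09752, the POX09752 deletion strain. The second was Ku70, itself labelled a mutant, and the growth text names MuKu70 for all 6 libraries. The stated question was what POX09752, a transcription factor, does to transcript levels of genes for cellulases and xylanases. Whether the libraries of a strain came from separate cultures, and whether each strain is more than 1 clone, was not stated, so spreads describe these libraries and may be technical.

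Penicillium oxalicum is a mould whose secreted enzymes digest plant cell walls, and on cellulose it makes cellulases under the control of several transcription factors. In filamentous fungi, genes of a shared pathway, such as those that make a secondary metabolite, often lie side by side on a chromosome and can be transcribed together. Ku70 takes part in the repair of broken DNA ends without a template, and fungi without it are often used as hosts for gene replacement, because added DNA then goes to its matching site more often. No product name, position or sequence was paired with these IDs in the tables used here (0 of 9834 IDs matched a locus tag of the RefSeq gene table), so the IDs are described by number, level and length alone. Whether neighbouring numbers are neighbouring genes was not tested.

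The deleted gene itself had a count of 0 in each MuPOX09752 library, against 46.4, 42.6 and 49.9 FPKM in the Ku70 libraries. The total expected count per library was between 13099454 and 14115694. Pearson's r of log2(FPKM + 1) across IDs was 0.981 to 0.993 between MuPOX09752 libraries, 0.995 to 0.996 between Ku70 libraries and 0.883 to 0.898 between strains. MuPOX09752 replicate 3 stood farthest from its group, at 0.981 to 0.984 with the other 2 libraries, and values without it are given where they matter.

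The rising IDs were weakly expressed in Ku70 and reached moderate to high levels in MuPOX09752. Their median was 43.5, 64.5 and 55.2 FPKM in MuPOX09752 replicates 1, 2 and 3, against 3.97, 4.09 and 3.85 FPKM in the 3 Ku70 libraries. The median ratio of means was 6.83, with quartiles at 3.06 and 29.1 and a range from 2.02 to 639. Together the 88 IDs took 0.82% ± 0.17 of the counts of a MuPOX09752 library and 0.0996% ± 0.0019 of those of a Ku70 library (SD, n = 3 each). Among all 8539 expressed IDs of the series, 11% had a ratio of at least 2 and 8.39% a ratio of at most 0.5, and in the range 27.1% had a ratio of at least 2. Below POX09343 it was 10.4% of 8206 expressed IDs, and the 854 rising IDs there had a median ratio of 2.89. Their Ku70 means were also low, with a median of 9.59 FPKM against 29.7 FPKM for all expressed IDs below POX09343. Since the ratio divides by the Ku70 mean, the choice itself favours low Ku70 means. A ratio of at least 100 was reached by 15 of the 88 IDs in the range and by 1 of those 854.

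**Figure D1:**
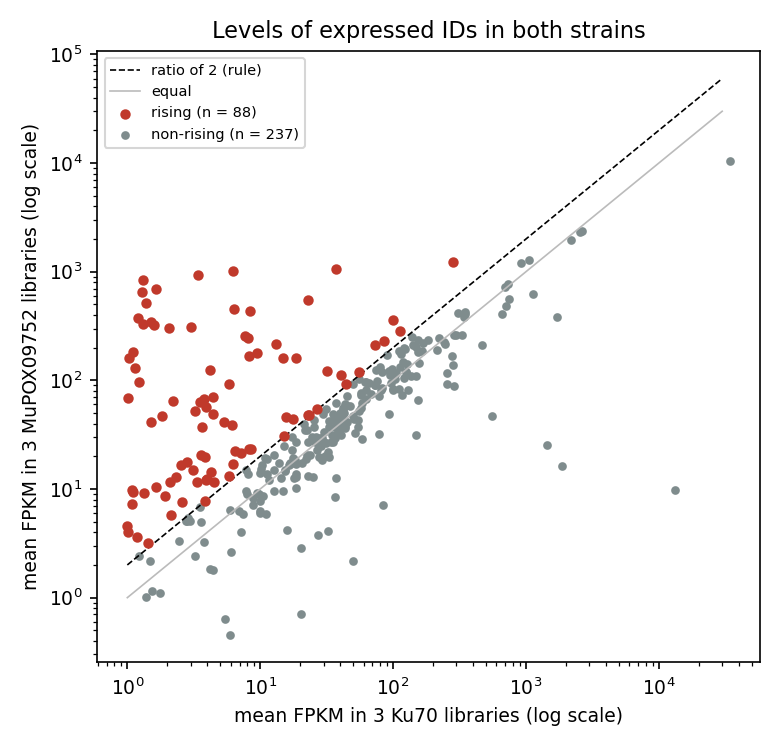
Mean FPKM in the 3 MuPOX09752 libraries (vertical axis, log scale) against mean FPKM in the 3 Ku70 libraries (horizontal axis, log scale) for the 88 rising and 237 non-rising expressed IDs, with lines at equal levels and at a ratio of 2. Rising IDs near 1 FPKM in Ku70 range from 3.17 FPKM or more in MuPOX09752 up to 839 FPKM, the mean of POX09600, which had 1.31 FPKM in Ku70.

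In every one of the 88 IDs, all 3 MuPOX09752 libraries lay above all 3 Ku70 libraries, while 33.6% of all expressed IDs had this order. The edgeR quasi-likelihood test, with Benjamini-Hochberg adjusted p under 0.05, called 87 of the 88 higher in MuPOX09752, where 29.8% of 8807 tested IDs were called higher and 60.1% were called in either direction. Nothing is read from either count, since the rule used the same values. The ID not called was POX09417, with 4.03, 5.47 and 7.96 FPKM in MuPOX09752 and 3.82, 1.33 and 1.29 FPKM in Ku70, from 5 Ku70 counts in all. When each library was left out in turn, 84 of the 88 ratios stayed at or above 2 in every case. The other 4, POX09409, POX09640, POX09705 and POX09812, had lowest ratios of 1.91, 1.81, 1.72 and 1.99.

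The most abundant rising ID in MuPOX09752 was POX09717, which was also the most abundant of the 88 in Ku70. It had 1263, 1415 and 1034 FPKM in MuPOX09752 and 289, 285 and 280.2 FPKM in Ku70, a ratio of 4.35. It held rank 92 of the 9834 IDs in MuPOX09752 and rank 556 in Ku70. POX09829 came next, with 749, 864 and 1573 FPKM in MuPOX09752 against 40.7, 35.1 and 35.2 FPKM in Ku70, a ratio of 28.7. Its replicate 3 was about as far above the other MuPOX09752 libraries as these were from 0, and the ratio without that library was 21.8. POX09561 was nearly even within each strain, at 887, 1009 and 1137 FPKM in MuPOX09752 and 6.10, 6.17 and 6.40 FPKM in Ku70. Its ratio of 162 moved only between 152 and 172 when libraries were left out, and it took rank 118 in MuPOX09752 against rank 7282 in Ku70.

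POX09563, close to POX09561 in number, was similarly even, with 602, 553 and 502 FPKM in MuPOX09752 and 25.2, 22.5 and 21.3 FPKM in Ku70, a ratio of 24. The IDs that were already well expressed in Ku70 had smaller ratios. Of the 14 with a Ku70 mean of at least 20 FPKM, 3 had a ratio of at least 4 (POX09717, POX09563 and POX09829). POX09819 had 262, 261 and 322 FPKM in MuPOX09752 and 112, 124 and 101 FPKM in Ku70. POX09719, separated from POX09717 by a single number, had 367, 429 and 278 FPKM in MuPOX09752 and 93.8, 107 and 97.7 FPKM in Ku70. Their ratios were 2.51 and 3.6, and neither pair of groups overlapped.

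The largest ratios belonged to IDs near the lower limit in Ku70, where the divisor is smallest. POX09600 had 612, 1220 and 685 FPKM in MuPOX09752 and 1.5, 1.57 and 0.87 FPKM in Ku70, a ratio of 639 that rests on 18 Ku70 counts in all. The ratio of its counts scaled to library totals was 638, and its 95% exact binomial interval, which covers only the error of counting, was 403 to 1077. POX09814 followed at a ratio of 504, with 437, 657 and 848 FPKM in MuPOX09752 and 1.75, 0.92 and 1.18 FPKM in Ku70. In both IDs the lowest MuPOX09752 library was more than 200 times the highest Ku70 library. POX09604, 4 numbers above POX09600, had 381, 1012 and 687 FPKM in MuPOX09752 against 1.42, 1.86 and 1.62 FPKM in Ku70, a ratio of 424. POX09588 had 218, 758 and 556 FPKM in MuPOX09752 against 1.86, 1.17 and 1.13 FPKM in Ku70, a ratio of 368. POX09720 had 622, 1377 and 819 FPKM in MuPOX09752 against 2.94, 4.02 and 3.29 FPKM in Ku70, a ratio of 275. These 3 shared the same order of MuPOX09752 libraries, with replicate 2 highest and replicate 1 lowest.

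POX09726 had 278, 430 and 411 FPKM in MuPOX09752 and 0.47, 1.49 and 1.68 FPKM in Ku70, a ratio of 308 from 15 Ku70 counts. POX09606 had 166, 514 and 317 FPKM in MuPOX09752 and 1.23, 1.45 and 1.25 FPKM in Ku70, a ratio of 253 from 78 Ku70 counts. POX09569 had 265, 359 and 413 FPKM in MuPOX09752 and 1.34, 1.40 and 1.81 FPKM in Ku70, a ratio of 228 with a counting interval from 124 to 476. The width of that interval comes from 10 Ku70 counts. In all, 15 of the 88 IDs had a Ku70 mean under 5 FPKM together with a MuPOX09752 mean of at least 100 FPKM, and 16 had fewer than 30 Ku70 counts over the 3 libraries. Without those 16 the median ratio was 6.38.

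**Figure D2:**
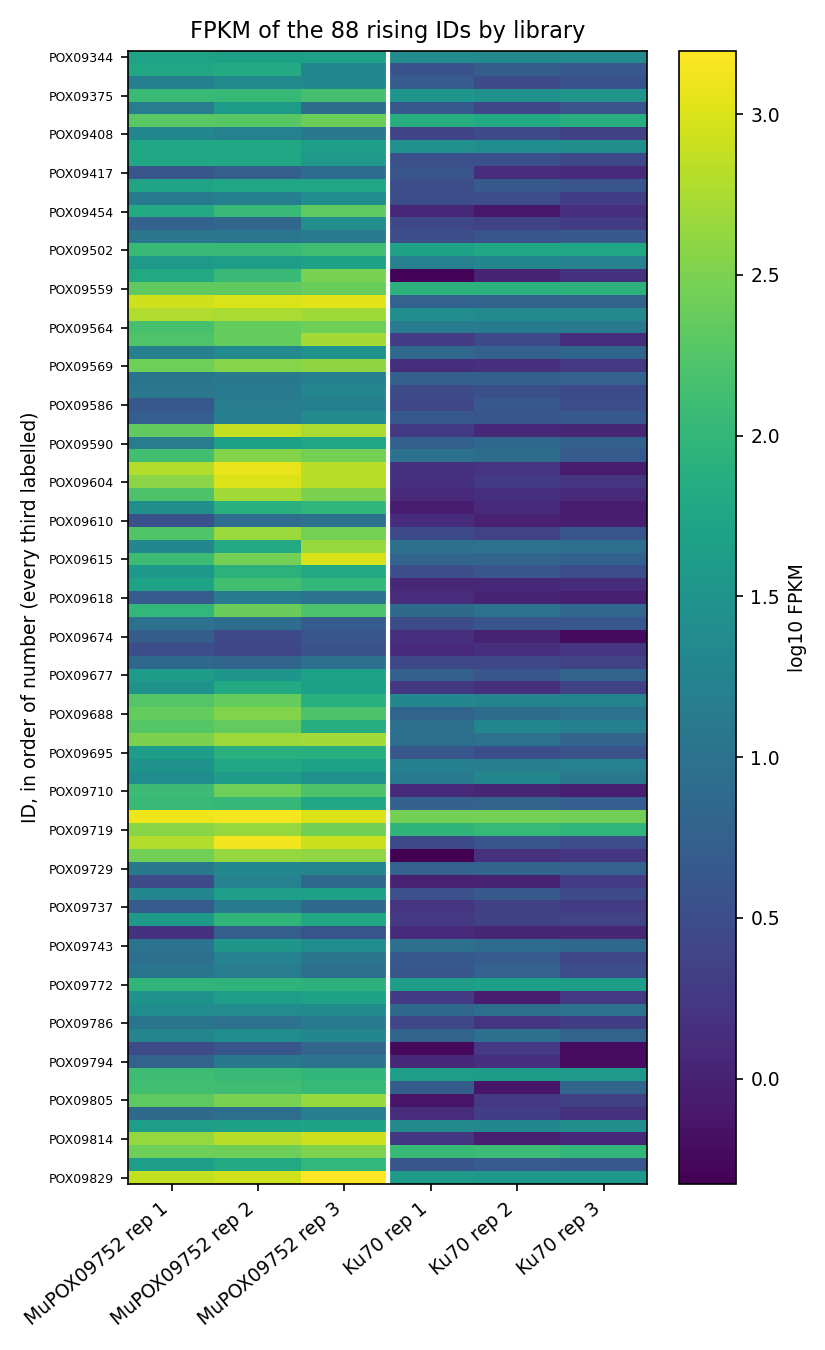
FPKM of the 88 rising IDs (rows, in order of ID number, some rows labelled) in the 3 MuPOX09752 libraries and the 3 Ku70 libraries (columns), with log10 FPKM as colour. The MuPOX09752 columns are brighter in every row, and in the rows from POX09586 to POX09620 the replicate 1 column is the darkest of the MuPOX09752 columns.

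The thresholds cut through a continuous range of values. Just inside the ratio of 2 were POX09409 at 2.02 (54 FPKM in MuPOX09752 and 26.7 FPKM in Ku70), POX09705 at 2.02 (30.6 FPKM and 15.1 FPKM, in the same order) and POX09640 at 2.05 (7.83 FPKM and 3.81 FPKM). Just outside were POX09517 at 1.95 (6.89 FPKM in MuPOX09752 and 3.52 FPKM in Ku70), POX09832 at 1.95 (2.40 FPKM and 1.23 FPKM, in the same order) and POX09669 at 1.91 (173 FPKM and 90.3 FPKM). With 1 library left out, POX09517 ran from 1.56 to 2.20. POX09832, with 9 Ku70 counts, ran from 1.46 to 3, so both could pass the ratio of 2. The value of 3 came without Ku70 replicate 2, where the Ku70 mean of POX09832 was under the minimum of 1 FPKM. By Ku70 level, POX09788, POX09674 and POX09609 lay just inside, at means of 1, 1.01 and 1.01 FPKM, with ratios of 4.61, 3.95 and 67.6. That of POX09788 was 7.89 without Ku70 replicate 2, where its Ku70 mean was under the minimum of 1 FPKM. Just below the limit were POX09608 and POX09686, both at 0.907 FPKM, and POX09547 at 0.887 FPKM, with ratios of 345, 23.9 and 8.09. POX09608 had a ratio of 227 without MuPOX09752 replicate 2, and POX09686 had 35.9 without Ku70 replicate 1. POX09608 and POX09609, next to each other in number and on opposite sides of the limit, both had far higher levels in MuPOX09752.

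Neighbouring numbers often held rising IDs together. Of the 88, 27 were followed by another rising expressed ID and 36 by an ID that was under 1 FPKM in Ku70 and higher in MuPOX09752. A non-rising expressed ID came next in 23 cases. After the 237 non-rising IDs the next number was again a non-rising ID in 175 cases, and a rising expressed ID in 25. It was a rising ID under 1 FPKM in Ku70 in 30. In all, 77 of the 88 had an ID of either rising kind directly before or after them, and 44 had another of the 88. The rising kinds made up 88 and 144 of the 483 IDs, so many such neighbours would also occur in a random order. The excess over that share was not tested. Members alone formed 17 runs of consecutive numbers with 44 IDs, and the longest, of 4 IDs each, were POX09609 to POX09612, POX09615 to POX09618, POX09674 to POX09677 and POX09785 to POX09788. When IDs under 1 FPKM in Ku70 were counted too, the longest unbroken run was POX09593 to POX09618, with 26 IDs of which 11 were among the 88. The next were POX09553 to POX09572, with 20 IDs (8 of the 88), and POX09459 to POX09475, with 17 IDs (1 of the 88).

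The rising IDs were unevenly spread over the range. From POX09550 to POX09749 lay 55 of the 88, and from POX09500 to POX09549 only 2 of 42 expressed IDs. Windows of 50 numbers showed 15 of 22 expressed IDs rising from POX09550 to POX09599 and 13 of 34 from POX09600 to POX09649. The share was 10 of 38 from POX09650 to POX09699, 17 of 29 from POX09700 to POX09749, and 4 of 39 from POX09350 to POX09399. The median ratio of the members was 67.6 from POX09600 to POX09649 and 16.3 from POX09550 to POX09599, but 4.35 from POX09700 to POX09749. The window with the most rising IDs was therefore not the one with the largest ratios.

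**Figure D3:**
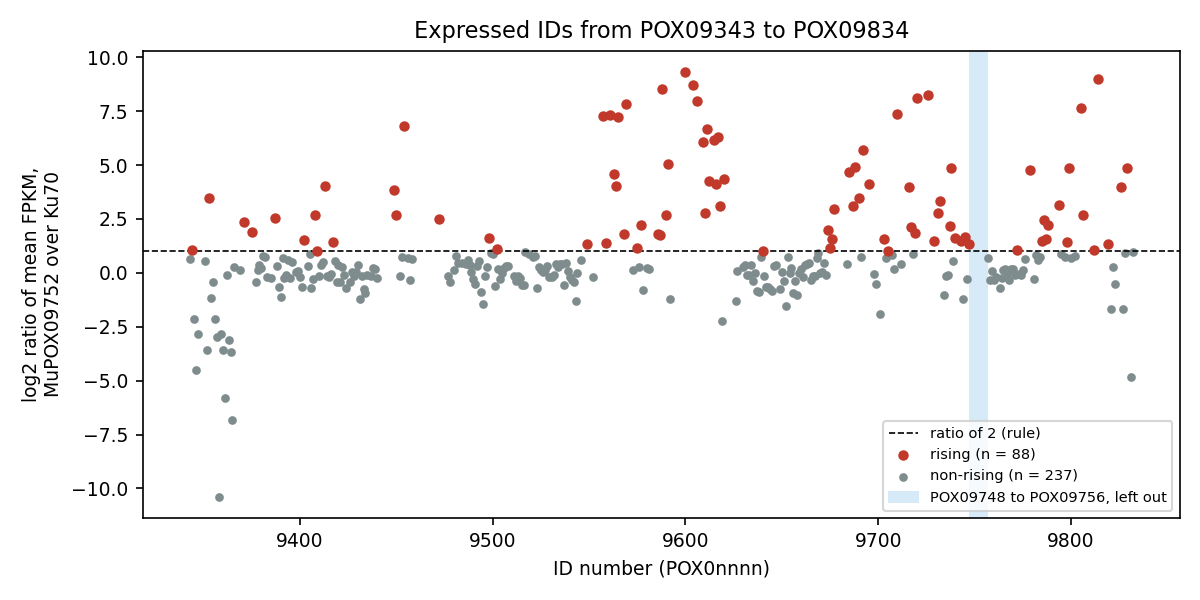
Log2 ratio of mean FPKM, MuPOX09752 over Ku70 (vertical axis), by ID number (horizontal axis) for the 88 rising and 237 non-rising expressed IDs, with the rule's ratio of 2 as a dashed line and the 9 left-out IDs shaded. Rising IDs crowd between POX09550 and POX09620 and between POX09674 and POX09747, most non-rising IDs lie near 0, and a group of strong falls lies below POX09366.

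The 4 longest runs differed in level and in how far their members went together. In the run POX09609 to POX09612, POX09609 had 27.1, 81.4 and 97.1 FPKM in MuPOX09752 and 0.91, 1.27 and 0.86 FPKM in Ku70. POX09610 had 3.61, 8.43 and 9.99 FPKM in MuPOX09752 and 1.32, 0.99 and 0.92 FPKM in Ku70. POX09611 had 172, 465 and 290.4 FPKM in MuPOX09752 and 2.89, 2.31 and 3.91 FPKM in Ku70. These 3 were lowest in MuPOX09752 replicate 1 and lay within a factor of 3.6 between their MuPOX09752 libraries. POX09612, the last of the run, had 21, 63.4 and 454 FPKM in MuPOX09752 and 9.39, 10.1 and 8.82 FPKM in Ku70. Its ratio of 19 fell to 4.48 without MuPOX09752 replicate 3, so most of its mean came from 1 library.

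The run POX09615 to POX09618 held another ID of that kind at its start. POX09615 had 124, 290.5 and 958 FPKM in MuPOX09752 and 6.73, 6.60 and 5.83 FPKM in Ku70, with a ratio of 71.6, or 32.5 without MuPOX09752 replicate 3. POX09616 had 35.4, 85.6 and 67.2 FPKM in MuPOX09752 and 3.32, 4 and 3.33 FPKM in Ku70. POX09617 had 51.7, 134 and 103 FPKM in MuPOX09752 and 1.14, 1.19 and 1.32 FPKM in Ku70. The last of the run, POX09618, was much lower, at 4.98, 12.8 and 10.2 FPKM in MuPOX09752 and 1.32, 1.04 and 0.95 FPKM in Ku70. The last 3 IDs shared 1 order of libraries, with replicate 2 highest, at levels that differed more than 10-fold.

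The runs POX09674 to POX09677 and POX09785 to POX09788 were lower and more even. POX09677 had 41, 33.9 and 49.3 FPKM in MuPOX09752 and 5.68, 3.97 and 6.29 FPKM in Ku70, the highest level of its run. POX09674 had 5.18, 2.80 and 3.96 FPKM in MuPOX09752 and 1.41, 1.01 and 0.60 FPKM in Ku70. All 4 members of that run were lowest in MuPOX09752 replicate 2, unlike those of the runs above. POX09785 had 24, 23.6 and 23.1 FPKM in MuPOX09752 and 7.12, 8.90 and 9.72 FPKM in Ku70, the smallest spread between MuPOX09752 libraries of the 88, with a coefficient of variation (SD over mean) of 1.80%. POX09788, the last of its run, had 3.07, 4.08 and 6.69 FPKM in MuPOX09752 and 0.58, 1.83 and 0.59 FPKM in Ku70, from 10 Ku70 counts.

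The level differed more among the MuPOX09752 libraries in the rising IDs of both kinds than in the non-rising IDs. The rule used the mean of these same libraries, so 1 high library raises both the ratio and the spread. Spread and ratio are thus not independent. The median coefficient of variation over the MuPOX09752 libraries was 33.3% for the 88 IDs, 50.5% for the 144 rising IDs under 1 FPKM in Ku70, 11.4% for the 237 non-rising IDs and 10.6% for all expressed IDs. For the 854 rising expressed IDs below POX09343 it was 16.2%. The 88 IDs had a median of 1705 counts over the 3 MuPOX09752 libraries (quartiles 484 and 4755). The non-rising IDs had 1712 (quartiles 855 and 3800), so the median depth was close, with wider quartiles in the 88. The 144 had a median of only 176 counts. Of the 88, 40 (45.5%) had a highest MuPOX09752 library over 2 times the lowest, against 25 (10.5%) of the non-rising IDs and 6.27% of all expressed IDs. The members with a ratio of at least 10 had a median coefficient of variation of 41.4%, and those with a ratio under 3 had 15.8%. No test was made of these differences over IDs, which share the same 3 libraries. In Ku70 the medians were 16.2% for the 88 and 7.28% for the non-rising IDs, at 89.5 and 2064 counts, so the depth differed there.

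MuPOX09752 replicate 1 was the lowest of its group for 60 of the 88 IDs (68.2%), against 31.2% of the non-rising IDs and 30.7% of all expressed IDs. It was the highest for 10 of the 88, while replicate 2 was highest for 38 and replicate 3 for 40. MuPOX09752 replicate 1 thus had the smallest difference from Ku70 over this set, with 0.624% of its counts in the 88 IDs, against 0.926% and 0.908% in replicates 2 and 3. The 144 IDs under 1 FPKM in Ku70 that were higher in MuPOX09752 were likewise highest in replicate 1 in only 11 cases.

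**Figure D4:**
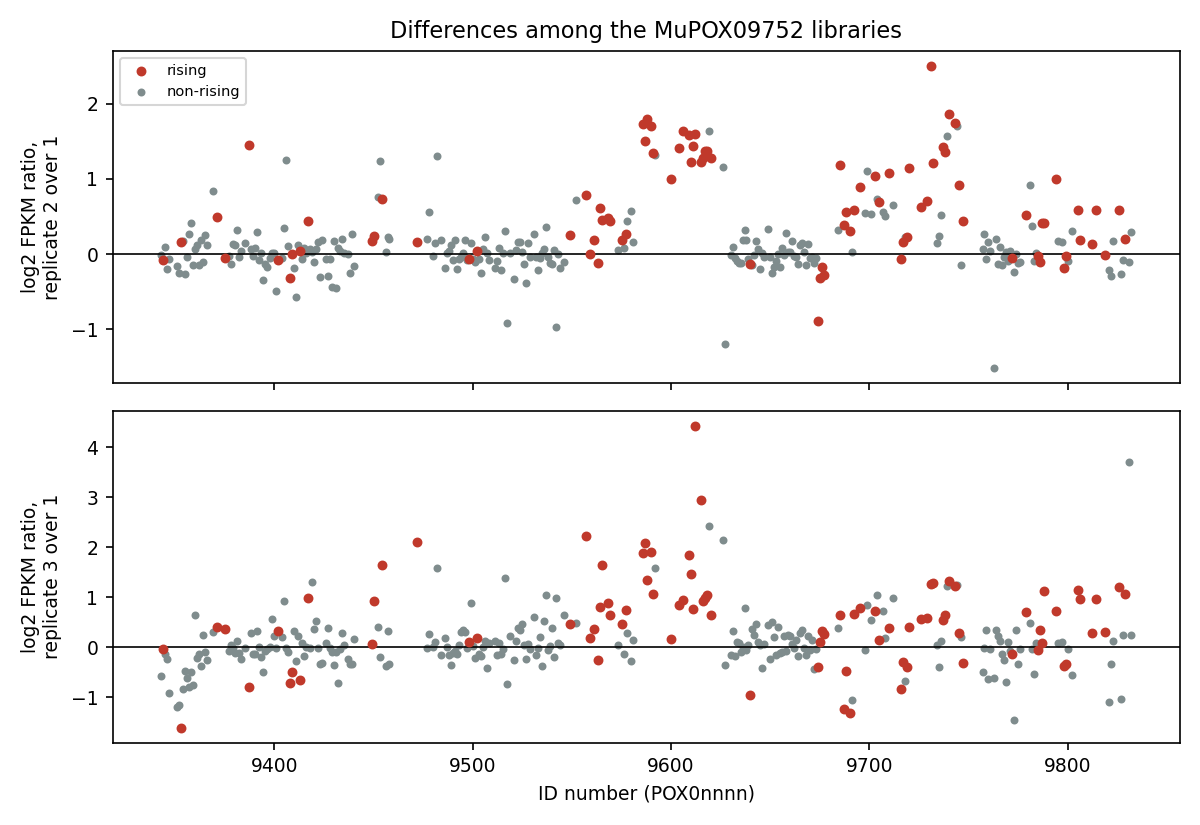
Log2 FPKM ratio of MuPOX09752 replicate 2 over replicate 1 (upper panel) and of replicate 3 over replicate 1 (lower panel), by ID number (horizontal axis), for rising and non-rising expressed IDs. From POX09586 to POX09620 the rising IDs gather between 0.99 and 1.80 in the upper panel, while most non-rising IDs lie near 0 in both panels.

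Stretches of neighbouring numbers, delimited after the values were seen, shared their lowest or their highest MuPOX09752 library. From POX09586 to POX09620, a stretch of 35 numbers, all 17 rising IDs, all 16 rising IDs under 1 FPKM in Ku70 and both non-rising expressed IDs were lowest in MuPOX09752 replicate 1. The log2 ratio of replicate 2 over replicate 1 for the 17 was 0.99 to 1.80, with a median of 1.41. Their highest library was not shared, as it was replicate 2 for 10 and replicate 3 for 7. From POX09703 to POX09747, 15 of 17 rising IDs were highest in replicate 2, as were 16 of 17 rising IDs under 1 FPKM in Ku70 and 7 of 11 non-rising IDs. In the stretch POX09557 to POX09577 replicate 3 was highest for 9 of 10 rising IDs and 6 of 9 under 1 FPKM in Ku70, while both non-rising IDs were highest in replicate 2. From POX09805 to POX09829 replicate 3 was highest for 7 of 7 rising IDs and 10 of 13 under 1 FPKM in Ku70, while 3 of 5 non-rising IDs were highest in replicate 1.

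Pairs of the 88 were also compared by their distance in number. The median absolute difference in log2 ratio of replicate 2 over replicate 1 was 0.18 for the 27 pairs 1 number apart, 0.31 for the 48 pairs 2 to 3 apart and 0.39 for the 146 pairs 4 to 10 apart. For the 645 pairs 11 to 50 apart it was 0.64, and for the 1629 pairs more than 150 apart 0.68. Among non-rising IDs the same quantity was 0.19 for pairs 1 apart and 0.22 for pairs more than 150 apart. For replicate 3 over replicate 1, the 88 had 0.40 at a distance of 1 and 0.66 at 2 to 3. They had 0.77 at 4 to 10, 0.72 at 11 to 50 and 0.81 at more than 150. The non-rising IDs had 0.31 at a distance of 1 and 0.40 at more than 150. These pairs share the same libraries and IDs, so the values describe and were not tested.

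Among the members with 1 MuPOX09752 library far from the other 2, some lay beside each other. POX09687 had 178, 232 and 75.7 FPKM in MuPOX09752 and 20.1, 17.7 and 18 FPKM in Ku70. POX09690 had 184, 227 and 73.7 FPKM in MuPOX09752 and 9.35, 19.6 and 15.4 FPKM in Ku70. Both were lowest in MuPOX09752 replicate 3, as was POX09688 between them, at 228, 338 and 165 FPKM in MuPOX09752. POX09692, 2 numbers further, had 317, 476 and 504 FPKM in MuPOX09752 and 8.86, 9.59 and 6.59 FPKM in Ku70, and was highest in replicate 3. POX09472 had 6.07, 6.77 and 26.2 FPKM in MuPOX09752 and 2.77, 2.28 and 1.93 FPKM in Ku70, and its ratio of 5.59 was 2.76 without MuPOX09752 replicate 3. POX09557 had 64.6, 111 and 304 FPKM in MuPOX09752 and 0.51, 1.06 and 1.54 FPKM in Ku70, a ratio of 154, or 84.7 without that library, from 6 Ku70 counts. For both IDs every MuPOX09752 library still lay above every Ku70 library.

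At the even end stood POX09344 and POX09772. POX09344 had 49.7, 47.1 and 48.2 FPKM in MuPOX09752 and 24, 22.6 and 23.4 FPKM in Ku70, a ratio of 2.07. POX09772 had 95.8, 92.2 and 87.7 FPKM in MuPOX09752 and 43, 45.6 and 43.7 FPKM in Ku70, a ratio of 2.08. Their ratios were close to the limit of the rule, yet the gap between the strains was more than 10 times the SD of either group. POX09353, whose number follows that of a strongly falling ID, had 59.6, 66.5 and 19.5 FPKM in MuPOX09752 and 3.6, 5.10 and 4.56 FPKM in Ku70.

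Rising IDs of both kinds in the range were shorter in the median than the non-rising ones, and no test was made of this. The effective length, computed from each ID's count, its FPKM and the total of the library, had a median of 582 bases in the 88, 503 bases in the 144 rising IDs under 1 FPKM in Ku70, 1046 bases in the 237 non-rising IDs and 1243 bases in all expressed IDs. It was under 400 bases for 34 of the 88 (38.6%), 28.5% of the 144, 13.9% of the non-rising IDs and 11% of all expressed IDs. For the 854 rising expressed IDs below POX09343 the median was 1122 bases, with 16.2% under 400 bases. The most abundant members were short, with 315 bases for POX09717, 356 bases for POX09829 and 337 bases for POX09561. POX09606 had 1438 bases, and the longest, POX09729, had 4087 bases, with 12.4, 20.2 and 18.7 FPKM in MuPOX09752 and 6.11, 6.54 and 5.95 FPKM in Ku70. At the other end, POX09417 had 56 bases. FPKM values of such short IDs rest on few counts, and a minimum of 1 FPKM in Ku70 is then passed by a handful of reads.

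**Figure D5:**
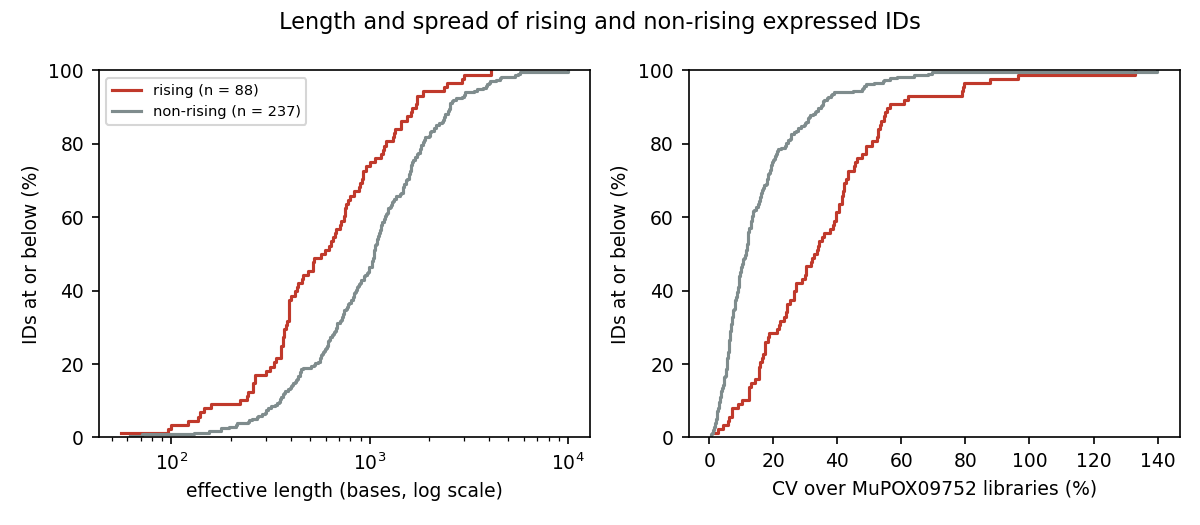
Share of IDs (vertical axis, percent) at or below a given effective length in bases (left, log scale) and at or below a given coefficient of variation over the 3 MuPOX09752 libraries (right), for the 88 rising and 237 non-rising expressed IDs. The curve of the rising IDs lies to the left for length, with a median of 582 against 1046 bases, and to the right for variation, with a median of 33.3% against 11.4%.

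Estimated counts that were not whole, which arise when a read that fits several IDs is divided between them, were more frequent among the 88. In at least 1 library, 30 of them (34.1%) had a count more than 0.001 from a whole number, against 20.1% of the 144 rising IDs under 1 FPKM in Ku70, 16.9% of the non-rising IDs and 11.9% of all expressed IDs. Below POX09343 the share was 10.9% of the 854 rising expressed IDs. IDs that share reads are linked, and no test was made of these shares. Among the 30 were POX09717, POX09720, POX09600, POX09814, POX09606, POX09569 and POX09615, whose levels are therefore uncertain to the extent that reads were shared. The deviations differed in size. POX09717 departed from a whole number only in Ku70 replicate 3, at 1227.99 counts, while POX09720 had 3816.4 counts in MuPOX09752 replicate 1. How many of their reads were shared cannot be read from these values. Of the 15 IDs with a ratio of at least 100, 8 had such a count, and POX09561, POX09604, POX09588 and POX09726 were among those with whole counts throughout. The median ratio of the 58 members with whole counts was 6.44, and they took 0.48% of the counts of a MuPOX09752 library on average.

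Most non-rising IDs of the same range had ratios between 0.5 and 2, though many still differed between strains, and some were far lower in MuPOX09752. Their median ratio was 0.97, and 115 had a ratio between 1 and 2 and 93 between 0.5 and 1. The strains' libraries overlapped for 85 of the 237, while all MuPOX09752 libraries were higher for 74 and lower for 78, against 33.6% and 33.4% of all expressed IDs. edgeR called 58 higher and 70 lower, where 29.8% of all tested IDs were called higher and 30.2% lower. Nothing is read from these counts either, since the rule that set the non-rising IDs apart used the same contrast. They were better expressed in Ku70 than the 88, with a median of 39.9 FPKM against 3.88 FPKM, so a given ratio needed a larger absolute change in them. The rule divides by the Ku70 mean, so this contrast in level is not independent of the choice.

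POX09666 and POX09667 were among the most abundant IDs of the range in both strains. POX09667 had 2309, 2355 and 2289 FPKM in MuPOX09752 and 2583, 2537 and 2498 FPKM in Ku70, and POX09666 had a ratio of 0.90. POX09827, at rank 1 of the series by FPKM in Ku70, had 13659, 11355 and 6615 FPKM in MuPOX09752 and 25436, 39672 and 37298 FPKM in Ku70. Its effective length was only 71.4 bases, and its 100713 Ku70 counts were fewer than the 368124 of POX09358. POX09827 stands only 2 numbers before POX09829, whose level was 28.7 times higher in MuPOX09752, so neighbours in number could go opposite ways.

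The strongest falls lay close together at the start of the range. POX09358 had 9.76, 13 and 6.90 FPKM in MuPOX09752 and 13730, 13501 and 12254 FPKM in Ku70, a ratio of 0.00075. POX09365 had 15.8, 18.8 and 14.7 FPKM in MuPOX09752 and 1632, 1948 and 2019 FPKM in Ku70. POX09361 had 25.7, 27.9 and 22.1 FPKM in MuPOX09752 and 1471, 1436 and 1384 FPKM in Ku70. These 3 held ranks 6, 58 and 92 of the series in Ku70 and none better than rank 4827 in MuPOX09752. POX09352 had 61.1, 51.3 and 27.5 FPKM in MuPOX09752 and 522, 599 and 549 FPKM in Ku70. Its next number, POX09353, belongs to the 88, with the opposite direction. POX09831, near the end of the range, had 0.14, 0.13 and 1.84 FPKM in MuPOX09752 and 19.5, 8.20 and 33.3 FPKM in Ku70, uneven in both strains.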

How the data were processed

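Total RNA of mycelium was sequenced in 6 libraries. The file headers of the 6 deposited tables name an expected count and an FPKM value per ID. RSEM 1.2.12, DESeq2, Bowtie2 2.1.0 and BWA 0.7.10-r789 are listed in the submitters' processing notes, with no role stated. The build, the annotation, strandedness and any filter are not given in the sources used. The expected counts were used as deposited apart from rounding for the test. The authors' FPKM values were taken to be counts divided by an effective length and the library total. No independent length was paired with these IDs to check this. The rule, ratios and spreads used FPKM as deposited, with no pseudocount. Effective lengths used libraries with at least 5 counts of the ID.

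Expected counts were rounded and tested with edgeR 4.0.16 (quasi-likelihood, TMM factors 0.973 to 1.02) over the 8807 IDs that averaged 1 FPKM or more in all libraries together, in R 4.3.3, with limma 3.58.1 and DESeq2 1.42.0 as alternatives. The test was tested on simulated counts. Intervals cover counting error only. The 88 members, the lists and the stretches were chosen with earlier results of these data known. IDs were named by rank of level, ratio, spread, nearness to a threshold and place in runs of at least 4. POX09344 and POX09772 came under this rule for small spread. POX09352 was added because its number was recalled as that of an amylase gene, a role not checked here. POX09353, POX09417, POX09610, POX09611, POX09616, POX09617, POX09687, POX09688, POX09690, POX09692, POX09729 and POX09812 were named after their values were seen.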

Additional observations from a re-analysis of the deposited data

How the results depend on the processing

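The rule found 88 IDs, and 85 to 90 with a library left out, of which 83 to 87 were among the 88. It found 80 on FPKM rescaled to an equal sum per library (all 80 among the 88) and 88 on quantile normalised FPKM (81 among the 88). A Ku70 minimum of 5 FPKM gave 36 IDs with a median ratio of 3.55, and whole counts alone, an alternative chosen after seeing the data, gave 58. The median ratio of 6.83 was 3.35 at a limit of 1.5 and 16 at a limit of 3. It was 14.3 with a Ku70 minimum of 0.5 FPKM and 16.1 where every MuPOX09752 library had to be 2 times every Ku70 library, since these limits select other IDs. With a library left out it ran from 6.32 (without MuPOX09752 replicate 3) to 9.06 (without Ku70 replicate 1).

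IDs were also chosen on the 2 libraries of 1 replicate letter and read in the other 4. Letter F (replicate 1) chose 86 IDs, with a median ratio of 5.95 there and 10.4 in the others. Letter S (replicate 2) chose 89, with 6.76 and 6.87, and letter T (replicate 3) 88, with 6.37 and 4.95. In the libraries not used for choosing, 80, 82 and 79 IDs had a ratio of at least 2. The set was defined with earlier results of all libraries known, and libraries of a strain may not be separate cultures. These values are therefore no independent check and describe only how the choice varied.

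The count of members called higher was 82 to 88 in every alternative, and that of non-rising IDs called lower 59 to 81 against 70. Whole-table calls ran from 4454 to 5851 against 5290. Of 656 log2 fold changes of named IDs under an alternative, 647 kept their direction and side of the threshold, 9 changed side and 0 reversed. The replicate letters did not clearly pair the libraries: the correlation of deviations from the strain means was -0.017, 0.16 and 0.075 within a letter and -0.13 to 0.063 between letters. With the letter as a replicate block 5283 IDs were called in all, with 87 members higher and 69 non-rising IDs lower.

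The 16 members with fewer than 30 Ku70 counts have ratios limited by depth, and their size is known only within wide counting intervals.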
